A study of Mus musculus with 8 samples.

Results

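A set of 10 transcription factor genes of the B lineage were followed in RNA-seq of bone marrow B cells from mice. They are Ebf1, Pax5, Tcf3, Foxo1, Ikzf1, Ikzf3, Spi1, Irf8, Bach2 and Lef1, chosen by name and matched by Ensembl identifier, 10 of the 54532 genes of the count table. All 10 passed the filter on low counts, which left 15305 genes. The libraries came from ovariectomized mice (OVX) and sham-operated mice (Sham), 3 per group. Removal of the ovaries is a model of estrogen deficiency, and the sham operation leaves them in place. B cells were taken from marrow by magnetic sorting, so the fraction can pool B cells of several stages. The labels of these libraries give no strain, age or time after surgery. A figure legend of the study counts mice for this comparison in the same number per group as there are libraries, but the labels do not tie a library to a mouse, so p-values measure the spread between libraries as labelled.

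These factors build the B lineage in steps. E2A, the protein of Tcf3, and EBF1 open the program in lymphoid progenitors with the help of IKZF1 and PU.1 (Spi1), FOXO1 drives the recombination genes and the receptor for interleukin 7, and PAX5 then commits cells by switching on B cell genes and silencing those of other lineages. IKZF3 and IRF8 act around and after the pre-B stage, LEF1 is a Wnt pathway factor of pro-B and pre-B cells, and BACH2 restrains plasma cell formation.

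The sort was checked first. Cd79a, a signal chain of the B cell receptor, had 1773, 1671 and 1547 CPM in Sham replicates 1, 2 and 3 and 1548, 1881 and 1775 CPM in OVX replicates 1, 2 and 3, where CPM is a gene's count relative to the library's total, times 1000000, after scaling with edgeR's TMM factors. The 10 general B cell markers, Cd79a among them, held 0.828% to 0.901% of the counts in Sham and 0.866% to 0.959% in OVX, with none at 0. Other marrow cells were present and uneven, since 16 neutrophil markers held 0.254% to 0.948% in Sham, highest in Sham replicate 3, and 0.111% to 0.410% in OVX, while 12 monocyte and macrophage markers held at most 0.244% and 12 T and NK cell markers at most 0.00903%. The libraries had 23838775 to 33136701 counts. Each member had at least 1428 reads in every library, so that counting error alone came to at most 2.65% of a value.

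None of the 10 members was called between OVX and Sham. A call needed an adjusted p under 0.05 together with a fold change of 1.6 or more in edgeR's quasi-likelihood test, and it was given to 0% of the 15305 genes tested. DESeq2 and limma-voom also called 0 members. At an unadjusted p under 0.05 there were 2 members, Ebf1 and Bach2, against 3.75% of all genes tested. The fitted log2 fold change was above 0 for 8 members and below 0 for 2, with a median of 0.20, against a median of -0.01 over all genes tested. The members' median was 0.09 without Sham replicate 2, 0.13 without OVX replicate 2, 0.30 without Sham replicate 1, 0.11 with libraries scaled on the 10 general B cell genes and 0.12 with the neutrophil share in the fit. Pax5 and Irf8, both near 0, turned below 0 with that scaling on B cell genes. The groups did not overlap for 2 members, again Ebf1 and Bach2, both with OVX on top, where 4.33% of all genes tested had OVX on top and 4.12% had Sham on top, a pattern of 0 members. The count at an unadjusted p under 0.05 turned on single libraries. It was 6 of 10 without Sham replicate 1, when 2698 of 16051 genes passed, 1 without Sham replicate 2 or without Sham replicate 3, and 0 without OVX replicate 2 or without OVX replicate 3.

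**Figure D1:**
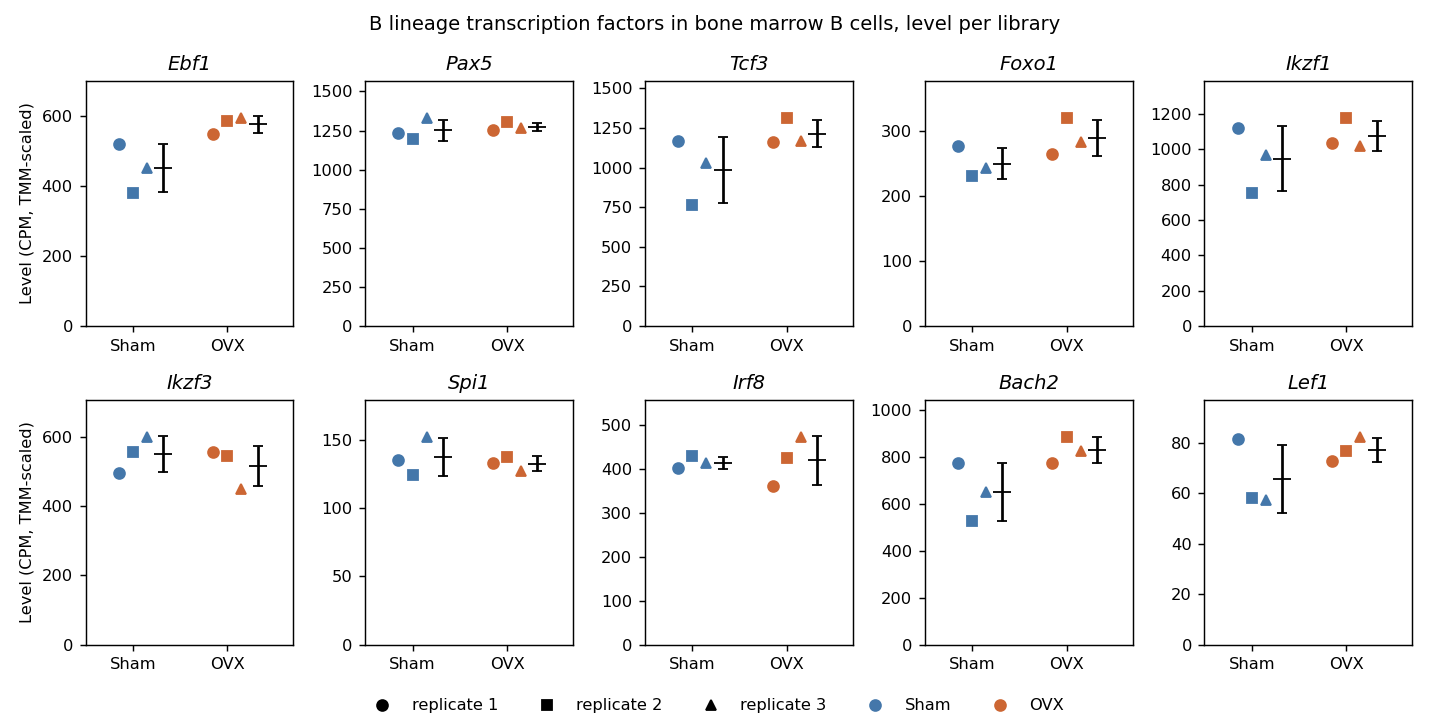
Level of each of the 10 genes in CPM scaled with TMM factors (vertical axis, from 0) in the 3 Sham and 3 OVX libraries. Points are libraries and bars show the mean ± SD (n = 3). For Ebf1 and Bach2 all OVX points lie above all Sham points, and for the other 8 genes the groups overlap.

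Ebf1 (ENSMUSG00000057098) lies at chr11:44618100-45008096 of GRCm38.p6. It encodes early B cell factor 1, needed for entry into the lineage. Its level was 520, 382 and 454 CPM in Sham replicates 1 to 3 and 550, 588 and 594 CPM in OVX replicates 1 to 3. The groups did not overlap, and Sham replicate 1 lay nearer to the lowest OVX library than to the next Sham library. The means were 452 ± 69.1 CPM in Sham and 577 ± 24.1 CPM in OVX (SD, n = 3 per group), a fold of 1.28. The log2 fold change was 0.35 (standard error 0.12, 95% interval 0.08 to 0.63, unadjusted p = 0.0181, adjusted p = 0.811 in edgeR's quasi-likelihood test), and it was 0.24 without Sham replicate 2 and 0.46 without Sham replicate 1. A two-sided exact permutation test gave p = 0.1, the smallest that 3 libraries against 3 allow.

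Pax5 (ENSMUSG00000014030), at chr4:44524748-44710694, had the steadiest level of the 10. It stood at 1232, 1194 and 1328 CPM in Sham replicates 1 to 3 and at 1252, 1302 and 1264 CPM in OVX replicates 1 to 3. All OVX libraries fell between the lowest and the highest Sham library, and the highest of the 6 was 1.11 times the lowest. Its log2 fold change was 0.02 (standard error 0.08, 95% interval -0.16 to 0.20). The standard deviation of its log2 level over the 6 libraries was 0.0549, and 4.29% of the genes tested had a lower one.

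Tcf3 (ENSMUSG00000020167), at chr10:80409541-80433976, encodes the E proteins E12 and E47. It had 1171, 762 and 1026 CPM in Sham replicates 1 to 3 and 1160, 1311 and 1171 CPM in OVX replicates 1 to 3. Sham replicate 2 was far below the others, Sham replicate 1 lay among the OVX libraries, and the groups overlapped. OVX against Sham gave a log2 fold change of 0.30 (standard error 0.16, 95% interval -0.07 to 0.66, unadjusted p = 0.094 and adjusted p = 0.811 from edgeR), and it dropped to 0.14 without Sham replicate 2.

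Foxo1 (ENSMUSG00000044167), at chr3:52268337-52350109, had 277, 231 and 243 CPM in Sham replicates 1 to 3 and 265, 320 and 283 CPM in OVX replicates 1 to 3. The groups overlapped through Sham replicate 1 alone, which was above OVX replicate 1. The log2 fold change was 0.21 (standard error 0.10, 95% interval -0.03 to 0.45), and it was 0.13 without OVX replicate 2.

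The sequences before a start of each of these genes are given because Ebf1, Tcf3 and Bach2 had the highest log2 fold changes of the members and Pax5 the steadiest level. Each is the 250 bases before a RefSeq start in GRCm38.p6, read 5′ to 3′ on the gene's own strand, and capitals mark an E-box, CANNTG, the core that E proteins bind. They lie at chr11:44619978-44620227 (plus strand), chr10:80433636-80433885 (minus strand), chr4:44710695-44710944 (minus strand) and chr4:32417185-32417434 (plus strand).
Ebf1: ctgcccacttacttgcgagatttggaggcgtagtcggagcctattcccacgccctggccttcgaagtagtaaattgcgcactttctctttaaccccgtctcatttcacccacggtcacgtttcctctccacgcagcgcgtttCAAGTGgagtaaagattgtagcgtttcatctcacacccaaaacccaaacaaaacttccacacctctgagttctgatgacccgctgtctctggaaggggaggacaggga
Tcf3: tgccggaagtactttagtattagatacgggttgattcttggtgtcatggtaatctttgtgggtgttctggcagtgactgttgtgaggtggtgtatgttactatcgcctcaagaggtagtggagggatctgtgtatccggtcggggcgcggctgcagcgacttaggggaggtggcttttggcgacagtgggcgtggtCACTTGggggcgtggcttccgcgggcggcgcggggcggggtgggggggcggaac
Pax5: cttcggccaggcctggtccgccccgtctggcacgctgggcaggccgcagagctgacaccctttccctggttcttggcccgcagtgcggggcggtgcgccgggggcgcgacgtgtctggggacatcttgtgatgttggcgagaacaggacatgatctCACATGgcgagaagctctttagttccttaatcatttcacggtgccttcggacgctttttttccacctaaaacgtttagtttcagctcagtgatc
Bach2: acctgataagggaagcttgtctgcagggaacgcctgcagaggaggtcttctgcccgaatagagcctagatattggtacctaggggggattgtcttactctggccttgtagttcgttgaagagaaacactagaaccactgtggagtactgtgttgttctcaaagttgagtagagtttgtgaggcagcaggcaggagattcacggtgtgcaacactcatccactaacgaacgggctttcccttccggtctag

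Ebf1 has a further window, just before the gene's first base at chr11:44617850-44618099, which held neither an E-box nor a hypoxia response core. The printed windows of Ebf1, Tcf3 and Bach2 lie at starts inside the span of the gene, and that of Pax5 just before the gene's first base. For Tcf3 and Bach2 no window before the gene's first base was found. The E-box began 108 bases before the inner start of Ebf1, 54 before that of Tcf3 and 94 before the start of Pax5. The Bach2 window, at its inner start, held none. Windows were found for 8 members, all but Spi1 and Ikzf3, 14 windows in all. Of these, 9 held an E-box, which 66.2% of 32851 windows of the same length over all genes did. The 9 windows belonged to 6 genes, and overlapping windows of Lef1 held the same E-box. The palindromic EBF core CCCNNGGG was in 2 member windows, of Foxo1 and Ikzf1, against 11.8% of all windows. Because the study is about HIF-1α, the hypoxia response cores were also searched on both strands. ACGTG was in 4 member windows, of Ebf1, Pax5, Irf8 and Lef1, against 16.6% of all, and GCGTG was in 4, of Ebf1, Pax5, Tcf3 and Foxo1, against 28.2%. In a Lef1 window the letters ACGTG lay inside an E-box. These matches describe the letters only, and the HIF-1α ChIP-seq library of the series was not analysed here.

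The Ikaros family members had their highs and lows in different libraries. Ikzf1 (ENSMUSG00000018654, chr11:11684962-11772930), the founding zinc finger factor of lymphoid progenitors, had 1123, 754 and 965 CPM in Sham replicates 1 to 3 and 1038, 1175 and 1018 CPM in OVX replicates 1 to 3. Sham replicate 2 was again the lowest, and Sham replicate 1 was second only to OVX replicate 2. The log2 fold change of Ikzf1 was 0.19 (standard error 0.15, 95% interval -0.16 to 0.53), and 0.04 without Sham replicate 2. Ikzf3 (ENSMUSG00000018168, chr11:98464610-98546031), which encodes Aiolos of later B cell stages, had 498, 559 and 602 CPM in Sham replicates 1 to 3 and 557, 546 and 450 CPM in OVX replicates 1 to 3. Here Sham replicate 3 was the highest and OVX replicate 3 the lowest. OVX against Sham gave a log2 fold change of -0.10 (standard error 0.11, 95% interval -0.36 to 0.17), and it was -0.0029 without OVX replicate 3, -0.04 without Sham replicate 3 and -0.17 without Sham replicate 1.

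For the ETS factor and the IRF factor the groups overlapped. Spi1 (ENSMUSG00000002111, chr2:91082374-91115759), whose protein PU.1 is also a factor of myeloid cells, had 136, 124 and 152 CPM in Sham replicates 1 to 3 and 133, 138 and 127 CPM in OVX replicates 1 to 3. The OVX libraries lay inside the Sham range, and the highest value was in Sham replicate 3, the library with the highest neutrophil share. The lowest value was in Sham replicate 2, the library with the highest share of monocyte and macrophage markers, 0.244%. The log2 fold change was -0.05 (standard error 0.09, 95% interval -0.25 to 0.16), and its sign turned to 0.02 without Sham replicate 3 and to 0.04 with the libraries' neutrophil share in the fit. Irf8 (ENSMUSG00000041515, chr8:120736358-120756694), which shares sites with PU.1, had 401, 428 and 412 CPM in Sham replicates 1 to 3 and 361, 425 and 472 CPM in OVX replicates 1 to 3. Both the lowest and the highest library were OVX. Plasmacytoid dendritic cells also make Irf8, and their 5 markers held at most 0.00391% of the counts, while the 12 monocyte and macrophage markers held at most 0.244%. The part of other cells in the levels of Spi1 and Irf8 was not tested. The log2 fold change of Irf8 was 0.02 (standard error 0.10, 95% interval -0.23 to 0.27), and it was -0.07 without OVX replicate 3.

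Bach2 (ENSMUSG00000040270, chr4:32238413-32586109) encodes a repressor that also takes part in the pre-B cell checkpoint. Its level was 775, 525 and 652 CPM in Sham replicates 1 to 3 and 775, 886 and 827 CPM in OVX replicates 1 to 3. The groups were apart by less than 1 CPM, as Sham replicate 1 had 774.5 and OVX replicate 1 had 775.3 CPM. The means were 650.4 ± 125 CPM in Sham and 829 ± 55.3 CPM in OVX (SD, n = 3 per group), with a log2 fold change of 0.35 (standard error 0.14, 95% interval 0.02 to 0.68, unadjusted p = 0.0416 and adjusted p = 0.811 from edgeR). It was 0.21 without Sham replicate 2 and 0.49 without Sham replicate 1. The two-sided exact permutation test gave p = 0.1.

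Lef1 (ENSMUSG00000027985, chr3:131110297-131224357) had 81.3, 58.1 and 57.4 CPM in Sham replicates 1 to 3 and 72.6, 76.6 and 82.3 CPM in OVX replicates 1 to 3. Sham replicates 2 and 3 lay below all OVX libraries, and Sham replicate 1 was above 2 of them. OVX against Sham gave a log2 fold change of 0.24 (standard error 0.14, 95% interval -0.10 to 0.57), and it was 0.14 without Sham replicate 3 and 0.42 without Sham replicate 1.

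**Figure D2:**
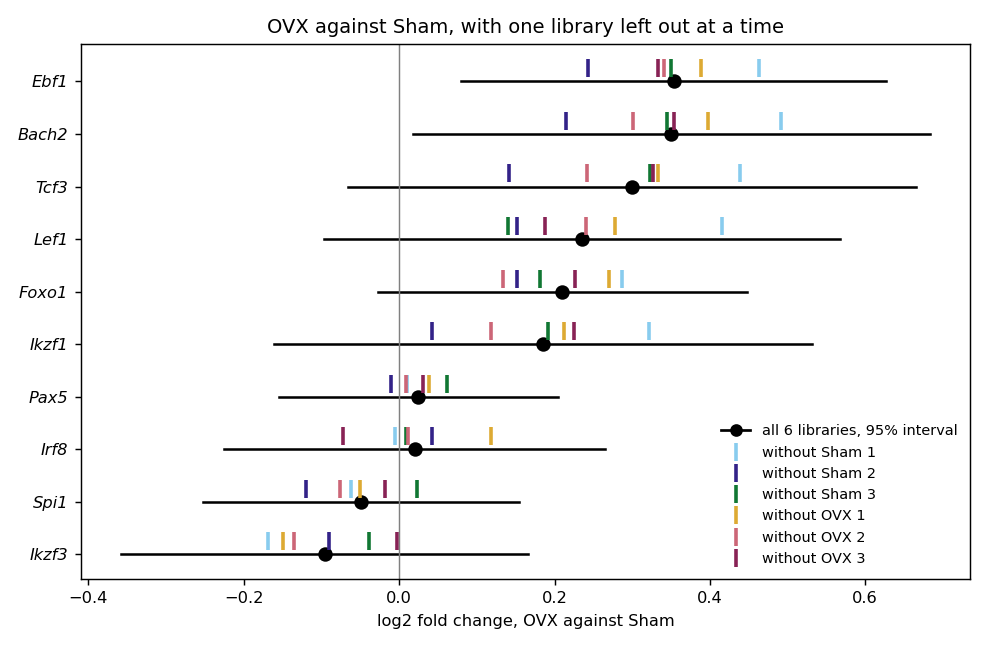
Log2 fold change of OVX against Sham (horizontal axis) for each member. Black points and lines are the estimate from all 6 libraries with its 95% interval, and coloured ticks are estimates with 1 library left out. The intervals of Ebf1 and Bach2 alone lie above 0, and their lowest ticks, 0.24 and 0.21, are those without Sham replicate 2.

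Reads of genes that overlap a member could be shared with it, since the sources used here do not say whether strand was used in counting. The largest such neighbour was the long noncoding RNA 5730488B01Rik within Pax5, which had at most 484 reads, 1.66% of the lowest Pax5 count. Bach2os within Bach2 had at most 230 reads, or 1.54%. Levels were not compared between genes, because the exon lengths behind these counts are not given in the sources used here.

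A pattern over libraries, noticed after the values were seen, was shared by 6 members. Ebf1, Tcf3, Foxo1, Ikzf1, Bach2 and Lef1 all had their 2 lowest levels in Sham replicates 2 and 3. Over all genes tested this pair of libraries was also the most common lowest pair, with 2673 genes or 17.5%. Sham replicate 2 alone was the lowest library for 7 of the 10 members and for 28.8% of all genes tested. Set against the median of the other 5 libraries, its level was 65.1% for Tcf3, 67.8% for Bach2, 69.5% for Ebf1, 72.7% for Ikzf1, 75.8% for Lef1 and 83.3% for Foxo1. For Spi1 and Pax5 it was 91.6% and 94.4%, and for Ikzf3 and Irf8 102% and 104%.

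Summed shares of B cell stage markers were at an extreme in Sham replicate 2, though not every marker was. The 10 pro-B and pre-B cell markers, such as Rag1 and Rag2 of the recombinase and Dntt, held 0.332%, 0.180% and 0.229% of the counts in Sham replicates 1 to 3 and 0.269%, 0.334% and 0.345% in OVX replicates 1 to 3. The 2 lowest shares were thus in Sham replicates 2 and 3 as well, with overlap between groups (exact permutation test, two-sided, p = 0.2, n = 3 per group). Of the 10 markers 6 were lowest in Sham replicate 2, and 1, Vpreb2, was highest there. Rag1, the gene of the list with the most reads, had 580 CPM in Sham replicate 2 and 974 to 1514 CPM in the others. The 8 mature B cell markers, such as Ighd and Fcer2a, held 0.346% in Sham replicate 2 and 0.195% to 0.233% in the other 5 libraries. In Sham replicate 3 they held 0.211%, inside that range. Of these 8, 6 were highest in Sham replicate 2. The 10 cycling cell markers held 0.212% in Sham replicate 2, the lowest of the 6, and all 10 were lowest there. They held 0.284% in Sham replicate 3 and 0.266% in OVX replicate 3. No marker of these 3 lists was at 0 in any library. Once the values had been seen, the pro-B and pre-B share was added to the fit as a covariate. The median log2 fold change of the members was then 0.03, with 0.19 for Ebf1, 0.15 for Bach2, 0.10 for Tcf3 and 0.0030 for Ikzf1. This share was used after it had been seen to follow the same libraries as the members. Its list also holds Rag1, Rag2 and Il7r of the FOXO1 targets and Vpreb1, Vpreb2 and Igll1 of the targets of EBF1, PAX5 and E proteins. The fit with this covariate is therefore a description and no test of cell stage. In bulk libraries such as these, fewer cells of a stage and less RNA per cell cannot be told apart, and the part of cell stage in the members' values was not tested.

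**Figure D3:**
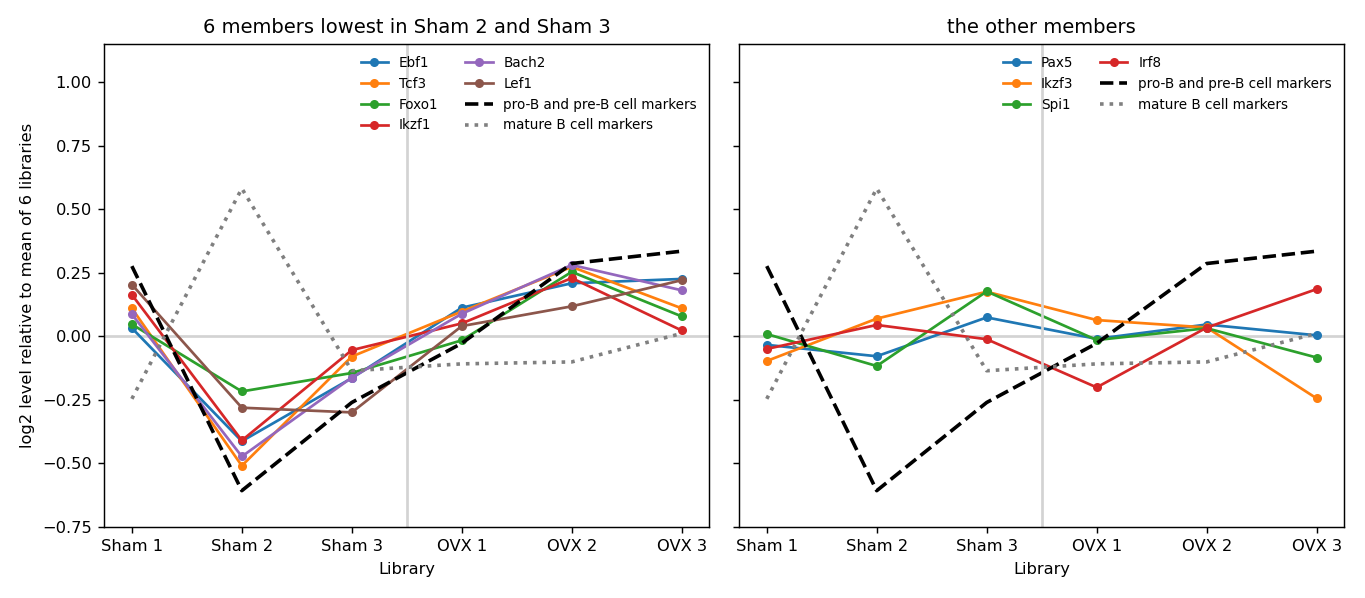
Log2 level of each member relative to its mean over the 6 libraries (vertical axis) by library (horizontal axis); lines only join the points of a gene or list. At left the 6 members lowest in Sham replicates 2 and 3, at right the other 4, each with the summed pro-B and pre-B markers (dashed) and mature B cell markers (dotted). In Sham replicate 2 the 6 members and the summed pro-B and pre-B markers are low while the summed mature B cell markers are at their highest, 0.346% of the counts.

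The spread over the 6 libraries varied among the members. It was below the median of all genes tested for 5 of the 10, the share that a median sets for all genes. The standard deviation of log2 level was below the median of all genes tested, 0.192, for Pax5, Spi1, Irf8, Ikzf3 and Foxo1, and above it for Ikzf1, Lef1, Ebf1, Tcf3 and Bach2. Bach2 had the widest, and 62.8% of the genes tested had a lower standard deviation than it. The full range ran from 1.11 fold for Pax5 to 1.72 fold for Tcf3. With libraries scaled on the 10 general B cell genes, 8 of the 10 members fell below the median spread.

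**Figure D4:**
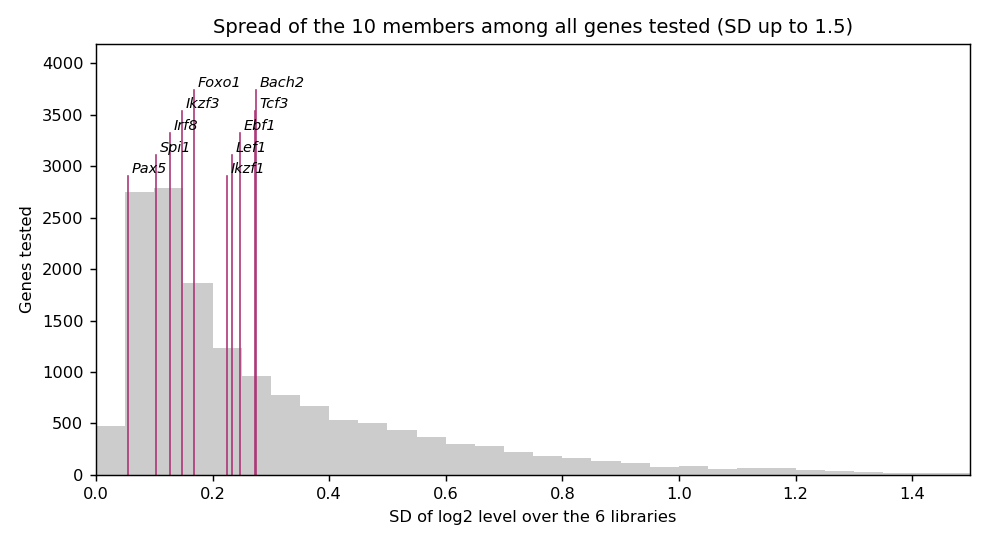
Number of genes tested (vertical axis) by the standard deviation of their log2 level over the 6 libraries (horizontal axis, up to 1.5), with the 10 members as vertical lines. Pax5 stands at 0.0549 near the left edge, and no member lies in the long right tail.

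The genes whose profile lay nearest to the members with the widest range were found by the root mean square difference of centred log2 levels over the 6 libraries. For Tcf3 they were Otub2 (0.0324), Cdkn2d (0.0344) and Pla2g12a (0.0356), where the median over all genes was 0.306. For Bach2 they were Arid5a (0.0249), Herpud1 (0.0300) and Plekhf2 (0.0318), with a median of 0.308. Otub2 had 138, 89.6 and 121 CPM in Sham replicates 1 to 3 and 132, 147 and 140 CPM in OVX replicates 1 to 3, and Arid5a had 208, 144 and 178 CPM and then 206, 230.4 and 222 CPM. Both were lowest in Sham replicate 2, which follows from their having been picked for a profile like that of the member.

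Ratios of counts within a library do not depend on how libraries are scaled. The ratio of Pax5 reads to Ebf1 reads was 2.37, 3.13 and 2.93 in Sham replicates 1 to 3 and 2.28, 2.22 and 2.13 in OVX replicates 1 to 3. All OVX ratios were below all Sham ratios. As Pax5 was nearly level over the libraries, this ratio mostly restates the level of Ebf1, whose groups did not overlap either. On the log2 scale the means were 1.48 ± 0.21 in Sham and 1.14 ± 0.05 in OVX (SD, n = 3 per group), a difference of -0.34 with a two-sided exact permutation p = 0.1, or 0.48 after adjustment over the 6 ratios tested. The difference was -0.26 without Sham replicate 2 and -0.46 without Sham replicate 1.

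The other 5 ratios overlapped between groups. Bach2 to Pax5 was 0.629, 0.440 and 0.491 in Sham replicates 1 to 3 and 0.619, 0.680 and 0.654 in OVX replicates 1 to 3, a log2 difference of 0.34 (exact permutation p = 0.2, adjusted p = 0.48). Ikzf3 to Ikzf1 was 0.444, 0.741 and 0.623 in Sham replicates 1 to 3 and 0.536, 0.464 and 0.442 in OVX replicates 1 to 3, a log2 difference of -0.30 (exact permutation p = 0.3), which was -0.13 without Sham replicate 2 and -0.50 without Sham replicate 1. Id3, whose protein holds E proteins off DNA, stood to Tcf3 at 0.106 in Sham replicate 2 and at 0.0558 to 0.0682 in the other 5 libraries. The log2 difference of Id3 to Tcf3 was -0.37 (exact permutation p = 0.4, adjusted p = 0.48), and -0.11 without Sham replicate 2. The log2 differences were -0.11 for Lef1 to Ebf1 and 0.06 for Irf8 to Spi1, against standard deviations within Sham of 0.17 and 0.18. Lef1 to Ebf1 was -0.21 without Sham replicate 3 and -0.05 without Sham replicate 1.

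**Figure D5:**
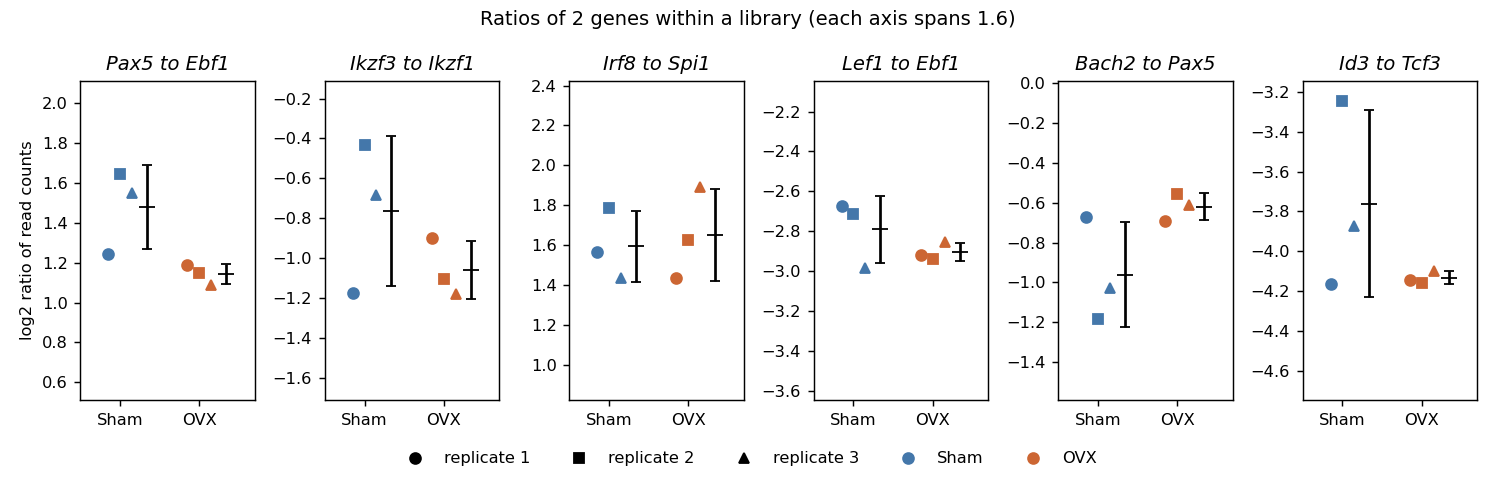
Log2 ratio of the read counts of 2 genes in the same library (vertical axes, each spanning the same width) in Sham and OVX. Points are libraries and bars are the mean ± SD (n = 3). For Pax5 to Ebf1 all OVX points lie below all Sham points, and in the other 5 panels the groups overlap.

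Relatives of the members in the same gene families were 19, of which 14 had enough reads to be tested, all but Ebf2, Ebf3, Ebf4, Foxo6 and Ikzf4. None was called. The log2 fold change was above 0 for 8 and below 0 for 6, with a median of 0.05, and went from -0.73 for Ikzf2 to 0.41 for Tcf7l1, both with under 4 CPM. On the general B cell genes the split was 6 above and 8 below. The lowest p of the list was that of Tcf7, which encodes TCF-1, the relative of LEF1 used in T cells. Tcf7 had 5.44, 5.84 and 7.15 CPM in Sham replicates 1 to 3 and 5.29, 2.75 and 3.60 CPM in OVX replicates 1 to 3, a log2 fold change of -0.67 (unadjusted p = 0.0430, adjusted p = 0.811 from edgeR). All OVX libraries were below all Sham libraries, and the 12 T and NK cell markers also had lower fitted levels in OVX, 12 of 12, with summed shares of 0.00547% to 0.00903% in Sham and 0.00426% to 0.00597% in OVX. Cell type as a source of this value was not tested. Tcf4 and Foxo3 had all OVX libraries above all Sham libraries, as 4.33% of all genes tested did. Their log2 fold changes were 0.12 and 0.08. Of these 14 relatives 6 were lowest in Sham replicate 2, Tcf12, Spib and Irf4 among them.

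Of 26 other regulators of B cells, 26 were tested and 0 called, 17 with a log2 fold change above 0 and 9 below, with a median of 0.05, or 11 above and 15 below on the general B cell genes. Zbtb17, which encodes the MYC partner MIZ-1, had the lowest p, with 67.0, 55.5 and 59.3 CPM in Sham replicates 1 to 3 and 70.8, 74.7 and 72.8 CPM in OVX replicates 1 to 3. Its log2 fold change was 0.26 (standard error 0.08, unadjusted p = 0.0154, adjusted p = 0.811 from edgeR), and all OVX libraries were above all Sham libraries. Sox4, which helps pro-B cells survive, had the highest log2 fold change, 0.43, with 227, 128 and 199 CPM in Sham replicates 1 to 3 and 233, 281 and 234 CPM in OVX replicates 1 to 3. Id2, an inhibitor of E proteins, had the lowest, -0.46. Again 11 of the 26 were lowest in Sham replicate 2, and 9 were highest there.

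Regulators of other fates had mostly log2 fold changes below 0. Of 10 such genes 9 were tested, all but Gata3, with 2 log2 fold changes above 0, 7 below and a median of -0.75, which was -0.27 without Sham replicate 3, and none was called. Prdm1, the plasma cell regulator that BACH2 represses, had 3.42, 9.47 and 6.59 CPM in Sham replicates 1 to 3 and 3.50, 3.84 and 2.87 CPM in OVX replicates 1 to 3. The groups overlapped through Sham replicate 1, and the log2 fold change was -0.93 (unadjusted p = 0.0354, adjusted p = 0.811 from edgeR). The 7 plasma cell markers, which include Prdm1, held 0.0545% to 0.105% of the counts in Sham and 0.0467% to 0.0646% in OVX. Gata2, a factor of progenitors and mast cells, had the lowest log2 fold change at -1.19, with 1.16 to 6.75 CPM over the libraries, and Notch1 the highest at 0.17. All 16 neutrophil markers and all 12 monocyte and macrophage markers also had log2 fold changes below 0, none of them called, although 8 of the 12 monocyte and macrophage markers were above 0 without Sham replicate 2. Their part in this list was not tested.

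Of 10 known targets of EBF1, PAX5 and E proteins, 7 had a log2 fold change above 0 and 3 below, with a median of 0.17 and none called or at an unadjusted p under 0.05. The median was 0.01 without Sham replicate 3 (6 above, 4 below), 0.10 without Sham replicate 2 (10 above), 0.09 without OVX replicate 2 or without OVX replicate 3, 0.27 without Sham replicate 1 and 0.09 on the general B cell genes (6 above, 4 below). Vpreb3, of the pre-B receptor pathway, had the lowest p and the highest value, a log2 fold change of 0.41 with 621, 336 and 433 CPM in Sham replicates 1 to 3 and 516, 689 and 640 CPM in OVX replicates 1 to 3. Vpreb2 had the lowest value, -0.06. Sham replicate 2 was again the lowest library for Vpreb3.

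Of 10 targets of FOXO1, 8 had a log2 fold change above 0 and 2 below, with a median of 0.13 and none called. The median was 0.21 without Sham replicate 2 (10 above), 0.08 without Sham replicate 3 (6 above, 4 below) and 0.05 on the general B cell genes (6 above, 4 below). Il7r, the receptor chain for interleukin 7, had the lowest p (0.0562 unadjusted, 0.811 adjusted, from edgeR), with 331, 220 and 266 CPM in Sham replicates 1 to 3 and 328, 333 and 363 CPM in OVX replicates 1 to 3. The highest value was that of Rag2, 0.52, with a level of 38.6 CPM in Sham replicate 2 against 52.1 to 98.1 CPM in the others. Il7r, Rag1 and Rag2 stand in the pro-B and pre-B marker list too.

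Of 4 genes that PAX5 represses, Flt3, Csf1r, Notch1 and Cd28, 1 had a log2 fold change above 0 and 3 below, with a median of -0.61 and none called. Flt3, the receptor of early progenitors, had 4.98, 4.61 and 7.48 CPM in Sham replicates 1 to 3 and 3.54, 3.24 and 4.11 CPM in OVX replicates 1 to 3, so that OVX was below Sham without overlap. Its log2 fold change was -0.64 (unadjusted p = 0.0318, adjusted p = 0.811 from edgeR). Cd28, a receptor of T cells, had the lowest value, -1.54, at 0.575 to 3.48 CPM. Csf1r, of the macrophage lineage, was highest in Sham replicate 2 with 119.9 CPM, where the 12 monocyte and macrophage markers also had their highest share.

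Of 7 Wnt pathway partners of LEF1, 5 had a log2 fold change above 0 and 2 below, with a median of 0.09 and none called. The median was 0.0072 on the general B cell genes (4 above, 3 below). Tle3, a corepressor, had the lowest p, with 183, 174 and 175 CPM in Sham replicates 1 to 3 and 189, 205 and 212 CPM in OVX replicates 1 to 3. All OVX libraries were above all Sham libraries, and the log2 fold change was 0.18 (standard error 0.07, unadjusted p = 0.0305, adjusted p = 0.811 from edgeR). Axin2, a common Wnt target, had the highest value, 0.28, at 1.97 to 3.26 CPM, and Tle1 the lowest, -0.07.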

How the data were processed

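RNA of bone marrow B cells was sequenced from 3 Sham and 3 OVX libraries, and group and replicate were taken from the labels. The deposited table holds the authors' raw read counts for each Ensembl identifier, not normalized. For its making, the submitters' processing notes name CASAVA, Bowtie 0.12.2 and mm10, while the counting tool, annotation and use of strand are not given in the sources used here. Symbols were matched to 54409 of 54532 identifiers. Depth was 23838775 to 33136701 counts per library, and no pair of libraries was alike within sampling noise. The ChIP-seq and input libraries were not analysed here.

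Counts were tested in R 4.3.3 with edgeR 4.0.16 (filterByExpr by group, TMM factors, quasi-likelihood test, Benjamini-Hochberg adjustment over 15305 genes). A call required an adjusted p under 0.05 and a fold of at least 1.6. The standard error is the log2 fold change divided by the square root of F. Levels of single genes and ratios, with 0.5 added to each count, were compared by two-sided exact permutation tests, which for 3 libraries against 3 cannot go below 0.1. DESeq2 1.42.0, limma-voom (limma 3.58.1), other scalings, filters and thresholds, a replicate block, covariates and leaving out each library were alternatives. The code was tested on simulated counts. Gene positions and promoter windows are from RefSeq for GRCm38.p6, the build of mm10.

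The members and lists were chosen with earlier results of these data known. All 10 members were named, and in each list the genes past the threshold or, where there were none, those with the lowest p and the highest and lowest log2 fold change, as well as the 3 nearest profiles to the pair of members with the widest range. A few further genes of a list were named as examples after their values were seen. Some genes of the lists are not reported here by name.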

Additional observations from a re-analysis of the deposited data

How the results depend on the processing

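Over 16 alternatives that change the fit, the 10 members gave 160 log2 fold changes, of which 148 kept their sign and 12 turned it. Under these and the other call thresholds 0 members and 0 genes were called, with a lowest adjusted p of a member of 0.273 (without Sham replicate 1). All turns were of members near 0. Irf8 turned to -0.0011 by library totals, -0.0668 on the general B cell genes, -0.0353 with the neutrophil covariate and -0.0206 with the pro-B and pre-B covariate, and ran from -0.0722 (without OVX replicate 3) to 0.119 over the fits with 1 library fewer, with -0.0049 lacking Sham replicate 1. Pax5 turned to -0.0605 on the general B cell genes and ran from -0.0106 (without Sham replicate 2) to 0.0617 when a library was left out. Ikzf3 turned to 0.0121 with the neutrophil and 0.0191 with the pro-B and pre-B covariate. Spi1 turned to 0.0387 with the neutrophil covariate and ran from -0.12 to 0.0236 (without Sham replicate 3). The number of members at an unadjusted p under 0.05 was 2, and it was 1 on the general B cell genes, 0 with the neutrophil covariate, 1 with the pro-B and pre-B covariate, and 0 to 6 when a library was left out. The pro-B and pre-B covariate, added after seeing the data, also moved the members' median to 0.0264. Members with a spread below the median of all genes went from 5 to 8 on the general B cell genes, a scaling under which the median over all genes was -0.09 on the log2 scale. The log2 difference of Irf8 to Spi1 ran from -0.0636 (without OVX replicate 3) to 0.164 when a library was left out, and was -0.023 without Sham replicate 3. The other ratios kept their sign. Of the gene lists, described under other scalings after seeing the data, relatives went from a median of 0.05 to -0.03 and other B cell regulators from 0.05 to -0.04 on the general B cell genes, with no turn by library totals or upper-quartile factors. Groups did not overlap for 2 members by library totals and 3 by upper-quartile factors or on the general B cell genes. The cause of these changes was not tested.

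All genes at an unadjusted p under 0.05 were 574, 755 with DESeq2, 594 with limma-voom, 1269 without a filter, 186 and 227 with the neutrophil and the pro-B and pre-B covariate, and 233 to 2698 when a library was left out. With the replicate number as a block 1 member, Ebf1, was at an unadjusted p under 0.05, with 206 genes in all. The correlations of same-numbered libraries' deviations were -0.41, -0.19 and -0.28, and whether such libraries share more than a number was not tested. Counting error was at most 2.65% of a member's value, so the spread between 3 libraries, not depth, limits these comparisons.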
